A study of Mus musculus with 18 samples.

Results

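Mouse embryonic stem cells (ESCs) carrying a rescue transgene for HDAC1 with the E63R substitution were compared with the same parental cells carrying the WT transgene, both without the treatment that serves to delete the endogenous genes. The comparison rests on 6 of the 18 libraries of the series, 3 of the untreated HDAC1-E63R line and 3 of the untreated HDAC1-WT line, chosen by their labels alone. Both lines are E14TG2a Hdac1/2 lox/lox cells, an ESC line whose endogenous Hdac1 and Hdac2 can be deleted with 4-hydroxytamoxifen (OHT), and both kept those endogenous genes here. Each had been stably transfected by piggyBac transposition with a construct for Flag-tagged HDAC1, and all were grown on gelatine in serum with leukemia inhibitory factor (LIF) without OHT. The libraries of the same lines treated with 1 µM OHT, labelled as 5 days, served as a second comparison that shares no library with the first. Whether a line is 1 clone, which promoter drives its transgene and whether its 3 replicates were separate cultures are not given in the labels. The p-values therefore measure only a spread between libraries, and that spread was estimated over all 18 libraries of the series.

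HDAC1 and HDAC2 are closely related lysine deacetylases that remove acetyl groups from histone tails. They act inside multiprotein complexes, among them NuRD, SIN3 and CoREST, which carry them to promoters and enhancers, and in ESCs these complexes take part in keeping the balance between self-renewal and differentiation. E63R exchanges glutamate for arginine at residue 63 of HDAC1 and is one of several substitutions that the study placed at the surface where HDAC1 meets its partner proteins. In the mouse gene, codon 63 lies in exon 3 of Hdac1 on the minus strand of chromosome 4 (mm10, chr4:129529018-129529020). The reference coding sequence from codon 44 to codon 72 (GENCODE M21) is shown to place the substitution, with codon 63 in capitals; the sequence of the rescue construct itself was not used here.
Hdac1: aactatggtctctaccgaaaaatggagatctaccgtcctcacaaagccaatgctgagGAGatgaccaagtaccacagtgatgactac

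The 6 libraries held between 9075739 and 11402694 counts on genes, and 18791 of the 53672 genes listed had enough counts to be tested. Levels are given as CPM, the counts of a gene scaled to the library's total on genes and by edgeR's TMM factors, and 3 counts, the upper limit that a count of 0 allows, corresponded to 0.272 to 0.343 CPM. All 6 libraries expressed the defining ESC genes. Pou5f1 was at 1291, 1296 and 1178 CPM in the WT libraries and 1083, 934 and 1565 CPM in the E63R libraries. Zfp42 was at 278, 242 and 269 CPM in WT and 344, 282 and 365 CPM in E63R. Nanog, Sox2, Esrrb and Klf4 were also read in every library. Across 16684 genes, the log2 levels of the WT libraries correlated with each other at a Pearson r of 0.974 to 0.976 and E63R replicates 1 and 2 at 0.977, a description over genes that share the same libraries.

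One E63R library, replicate 3, stood apart from the other 2 of its group, and values without it are given where they end a call or move a count by over 1.5-fold. Its Pearson r with replicates 1 and 2 was 0.942 and 0.932. In it, 20.6% of 16684 genes lay over 2-fold from the mean of replicates 1 and 2, 12.5% on the low side and 8.05% on the high side. The same share was 7.44% for replicate 1 and 9.72% for replicate 2, each measured against a mean that includes replicate 3, and 2.95% to 6.87% for the 15 libraries of the other groups. The deviation followed gene length. The shortest 10% of genes by exon length, up to 1056 bases, were higher in replicate 3 by a median of 0.50 on the log2 scale, and the longest 10%, from 9234 bases, had a median of -0.66. Spearman's rho between deviation and length over genes was -0.39 in replicate 3 and lay between -0.10 and 0.14 in those 15 libraries. The plot of deviation by length shows replicate 3 crossing its group in both directions. Genes for ribosomal proteins, which are short and highly expressed, took 16.6% of the counts of replicate 3, against 9.98% and 9.24% in replicates 1 and 2 and 7.92% to 12.2% in the 15 other libraries. Replicate 3 also had the lowest TMM factor, 0.81, where the 15 libraries had 0.95 to 1.11.

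**Figure D1:**
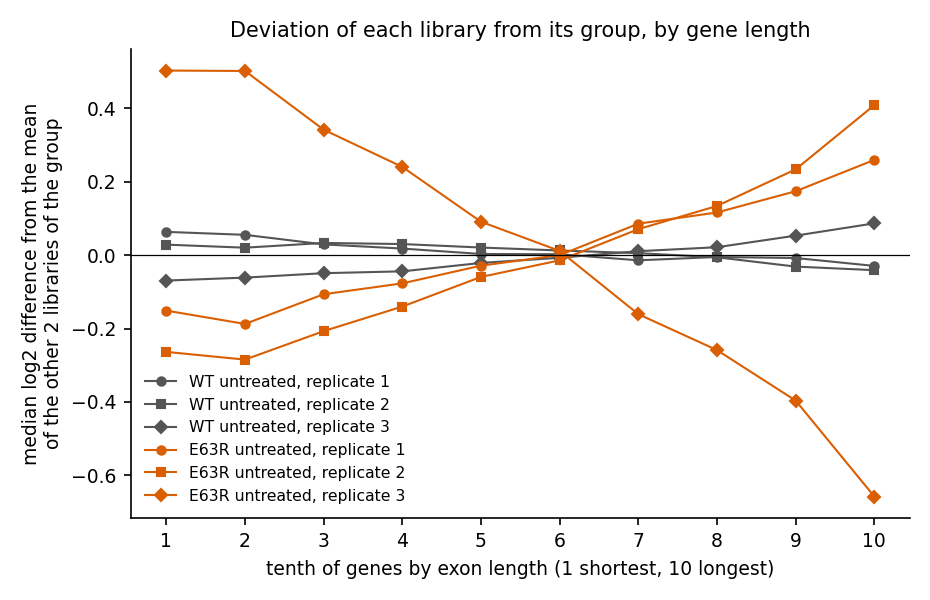
Median log2 difference of each untreated library from the mean of the other 2 libraries of its group (y axis), in 10 equal sets of genes ordered by exon length (x axis); each point is 1 library. E63R replicate 3 runs from 0.50 in the shortest set to -0.66 in the longest, while the WT libraries stay between -0.07 and 0.09.

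Among protein-coding genes with a mean of at least 10 CPM over the 6 libraries, the 5 that lay farthest below the other E63R libraries in replicate 3 were Zfp871, Lyst, Ahr, Pgbd5 and Spen. Spen, a very large nuclear repressor protein that binds RNA, was at 78.3, 95.6 and 14.6 CPM in E63R replicates 1 to 3 and at 125, 127 and 142 CPM in WT. Lyst, a giant protein of lysosome traffic, was at 11.6, 11 and 1.26 CPM in E63R and 14, 13.9 and 13.7 CPM in WT. The 5 that lay farthest above were Tex30, Myl4, Gadd45g, Fam25c and Gm5617. Gadd45g, a small stress-response protein, was at 8.5, 12.7 and 36.7 CPM in E63R and 15.3, 15.3 and 15.7 CPM in WT. These genes were picked for their value in replicate 3, so the values are a description. With replicate 3 left out, the fitted difference of Gadd45g turned from 0.31 to -0.55 and that of Ahr from -0.38 to 0.12.

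The rescued gene itself was lower in the E63R line. Hdac1 was at 204, 201 and 210.4 CPM in the WT libraries and 110.2, 94.9 and 110.1 CPM in the E63R libraries, with no overlap between the groups. The log2 fold change (E63R over WT throughout) was -0.96 ± 0.09 (SE), with an adjusted p of 8.81e-08 (edgeR's quasi-likelihood test, Benjamini-Hochberg), just short of the 2-fold limit used for calls. Hdac2 was at 208, 169 and 208 CPM in WT and 169, 152 and 209.6 CPM in E63R, groups that overlapped, with a log2 fold change of -0.14 ± 0.11 (SE) and an adjusted p of 0.386. The count of Hdac1 holds reads of the endogenous gene and any transgene reads that align to it, and the 2 sources cannot be told apart here. The longest Hdac1 transcript also shares 1450 bases at 96.3% identity with another annotated sequence, AC125456.1, so that some reads may have been split or lost. In the OHT-treated libraries Hdac1 had a log2 difference between the lines of -0.51.

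Called genes were those with an adjusted p under 0.01 and a change beyond 2-fold, the limits that the study used for its own lists. By this rule 623 genes were higher in the E63R line (3.32% of the 18791 tested) and 814 were lower (4.33%), 1437 in all (7.65%), of which 499 and 706 were protein coding. The 3 E63R libraries lay wholly above or below the 3 WT libraries for 606 of the 623 and 811 of the 814, against 17.1% of all tested genes above and 18.1% below. By adjusted p alone, 1698 genes were higher (9.04%) and 1472 lower (7.83%), and the median absolute log2 fold change over all tested genes was 0.42. All 3 WT libraries held 3 counts or fewer for 76 of the genes called higher, and all 3 E63R libraries did so for 64 of those called lower.

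These counts rest on a spread estimated from all 18 libraries. With only the 6 libraries in the fit, 209 genes were called higher and 295 lower, and with E63R replicate 3 also left out of those 6 the counts were 501 and 742. The adjusted p of edgeR's quasi-likelihood test over the 6 alone was 1.29e-05 for Mest, 0.000125 for Otx2 and 0.000602 for Klf4. Each is larger than in the reported fit. In the fit of all other libraries without replicate 3, 614 were higher and 748 lower, of which 462 and 633 were among the genes called with it. Replicate 3 was the most extreme E63R library in 361 of the 623 genes called higher and in 421 of the 814 called lower. Of the longest 10% of genes, 2.12% were called higher and 6.19% lower, and of the shortest 10% 4.48% and 2.97%. With trends of GC content and length removed from each library, 617 were called higher and 818 lower, 543 and 757 of them the same genes.

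**Figure D2:**
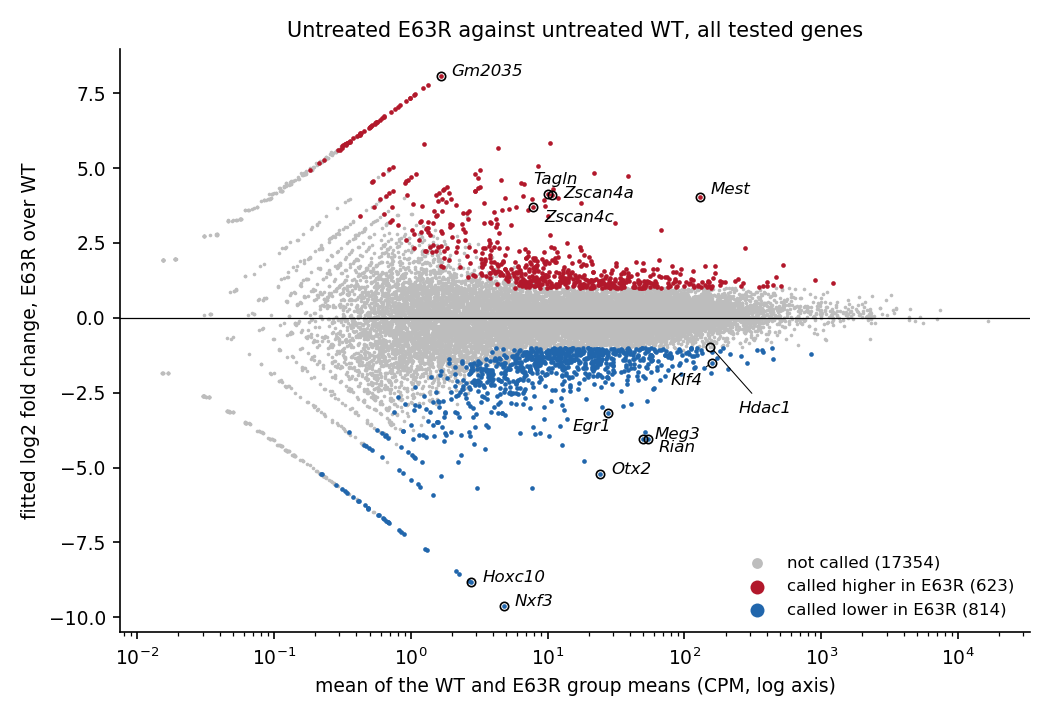
Fitted log2 fold change of E63R over WT (y axis) against the mean level of the 2 groups in CPM (x axis, log scale) for the 18791 tested genes, with 623 called higher in red and 814 called lower in blue; circled genes are named. The lines of points at the outer edge are genes read in 1 group only, whose fitted fold is set by the prior count. Mest and the Zscan4 genes stand among the higher genes, and Meg3, Rian, Otx2 and Nxf3 among the lower; Hdac1 lies just inside the 2-fold limit.

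Of the 12 protein-coding genes with the largest fitted increase, several belong to families known from the 2-cell embryo, among them Zscan4-ps1, Usp17lc and Gm21818, whose transcript matches Tcstv1 at 95.7%. Gm5039 was at 0.279, 0.362 and 0.40 CPM in WT and 15, 11.6 and 34.4 CPM in E63R. Gm8994 was at 2.14, 1.36 and 0.80 CPM in WT and 34.6, 30.8 and 61.1 CPM in E63R, and Gm21761 at 4.37, 2.17 and 1.8 CPM against 52, 56.1 and 116 CPM. In each of these the E63R libraries lay far above every WT library, with log2 fold changes of 5.82, 4.85 and 4.73. Gm2035, Hist1h1a and Duox2 had no count in any WT library. Gm2035 was at 2.96, 3.5 and 3.43 CPM in E63R, at least 11.6-fold above the mean level that 3 counts per library allow in WT. Hist1h1a, a linker histone, was at 2.03, 1.69 and 4.35 CPM, at least 9.49-fold above that limit. Duox2, an oxidase that makes hydrogen peroxide, was at 3.33, 1.02 and 1.94 CPM, at least 7.39-fold above it. The other 3 of the 12 were Gm20767, D13Ertd608e and Gm4027. The longest transcripts of all but Hist1h1a and Duox2 match another annotated symbol at 95% identity or more over at least 200 bases (Gm2035 and BB287469 over 435 bases, Gm20767 and Gm21761 over 1374 bases, Gm8994 and Eif4a3 over 1450 bases, for example), so the split of reads within these families is uncertain. Duox2, D13Ertd608e and Gm4027 were not called with only the 6 libraries in the fit.

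Nxf3, a relative of the messenger RNA export factor Nxf1, showed the largest fitted decrease. It was at 7.07, 14.3 and 7.2 CPM in WT and had no count in any E63R library, at least 29.8-fold lower. Slc51a, a subunit of a bile acid transporter, was at 6.79, 3.99 and 5.2 CPM in WT and at 0 in all 3 E63R libraries, at least 16.7-fold lower. Xlr and Slc7a14 were likewise read only in WT, at 3.91, 1.72 and 2.2 CPM and 1.49, 3.9 and 2.2 CPM, at least 8.16-fold and 7.91-fold lower. Otx2, described with the formative genes, had the most WT counts of the 12 largest decreases. Cldn11, Gm13889, Osr2, Gpr139 and Hist2h4 were between 1.4 and 8.7 CPM in the WT libraries and at most 0.226 CPM in any E63R library. Hist2h4 was not called with only the 6 libraries in the fit. Of genes with another biotype or none, the largest changes were Gm48754, Gm44454 and AC140244.1, higher in E63R, and Gm11635, Hopxos and AC127242.3, lower. Hopxos, a transcript opposite Hopx with which it shares bases, was at 16.6, 18.7 and 9.7 CPM in WT and 0.185, 0.678 and 0 CPM in E63R.

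Genes of the 2-cell stage, which in ESC cultures are active in a small, changing fraction of cells, were higher as a group. Of 15 tested members, 13 were called higher and 0 lower, against 3.32% and 4.33% of all tested genes. All 15 had every E63R library above every WT library, as had 17.1% of all tested genes. The median log2 fold change was 3.52 (3.35 with genes absent from 1 group set at their bound) against 0.00 over all tested genes. Their summed level was 6.43 to 11.1 CPM in WT and 95.7 to 127 CPM in E63R. Zscan4a was at 0.744, 1.09 and 1.7 CPM in WT and 17, 19.8 and 24.4 CPM in E63R. Zscan4c, a DNA-binding protein that marks cells in this state, was at 1.77, 0.362 and 1.2 CPM in WT and 11.4, 12.8 and 19.4 CPM in E63R. Tmem92, a membrane protein gene on chromosome 11, was at 1.21, 0.725 and 1.2 CPM in WT and 15.5, 18.9 and 27.6 CPM in E63R. All 3 E63R libraries were above all 3 WT libraries in each, with log2 fold changes of 4.11 ± 0.26 (SE), 3.7 ± 0.35 (SE) and 4.29 ± 0.29 (SE) and adjusted p of 1.96e-10, 7.28e-08 and 6.88e-10. Of the Usp17l genes, which encode ubiquitin proteases, Usp17lc was at 0.186, 0 and 0.50 CPM in WT and 7.39, 5.08 and 5.38 CPM in E63R. It was near 0 in WT with OHT too and passed the filter on low counts through the mutant lines. Zscan4b, at 0.186, 0 and 0.30 CPM in untreated WT and at 0 in every WT library with OHT, entered in the same way. Members like these could come out higher but not lower, and how many of the 15 entered so was not counted. The lack of members called lower is thus no result of its own. The 2 members that were not called, Duxf3 and Zfp352, had low counts. Duxf3, the mouse Dux gene whose protein switches on much of this programme, was at 0, 0 and 0.50 CPM in WT and 1.57, 2.03 and 2.06 CPM in E63R, with a log2 fold change of 3.46 ± 1.07 (SE) and an adjusted p of 0.0187. With only the 6 libraries in the fit, Zscan4b, Zscan4f, Usp17la, Usp17lb, Usp17ld and Usp17le were not called, and Tcstv3 was not tested. In bulk RNA, more cells in this state and more RNA per such cell cannot be told apart. E63R replicate 3 was the highest library for Zscan4a, Zscan4c and Tmem92 and lay between the others for Usp17lc.

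The Zscan4 genes lie in 1 cluster on chromosome 7 and are nearly identical, so the split of reads among them, and any loss of reads that matched several copies, is uncertain. The 300 bases around the RefSeq start sites (GRCm38.p6, 250 before and 50 after) show this likeness and a shared element, TATAAA, in capitals. The window of Zscan4d matched that of Zscan4c at 97.2% of 289 compared bases, and the window of Zscan4f matched that of Zscan4c at 99.3% of 277. They lie at chr7:11005495-11005794 (plus strand), chr7:11166099-11166398 (minus strand) and chr7:11397665-11397964 (plus strand).
Zscan4c: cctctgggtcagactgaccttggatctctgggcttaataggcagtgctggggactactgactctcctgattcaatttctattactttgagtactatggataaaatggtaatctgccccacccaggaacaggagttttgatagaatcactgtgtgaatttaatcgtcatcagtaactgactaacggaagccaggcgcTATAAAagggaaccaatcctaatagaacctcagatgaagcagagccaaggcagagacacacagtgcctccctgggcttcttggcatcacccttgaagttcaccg
Zscan4d: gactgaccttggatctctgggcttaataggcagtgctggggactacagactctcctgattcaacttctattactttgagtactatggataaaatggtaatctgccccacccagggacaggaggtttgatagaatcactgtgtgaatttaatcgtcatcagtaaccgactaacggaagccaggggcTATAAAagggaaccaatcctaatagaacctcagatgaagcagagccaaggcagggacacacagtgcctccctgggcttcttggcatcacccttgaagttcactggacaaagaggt
Zscan4f: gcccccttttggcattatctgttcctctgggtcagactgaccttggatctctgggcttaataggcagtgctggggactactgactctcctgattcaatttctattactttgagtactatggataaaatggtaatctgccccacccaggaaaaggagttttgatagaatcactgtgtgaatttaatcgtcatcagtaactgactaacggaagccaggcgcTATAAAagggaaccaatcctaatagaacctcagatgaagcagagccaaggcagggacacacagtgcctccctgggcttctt

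TATAAA was found on the strand of the gene in 7 of the 10 tested 2-cell members that had a promoter entry, and on the other strand in 0. Over all 32851 promoter windows of this length the shares were 8.32% and 6.95%. The 4 Zscan4 windows among the 7 are near copies of each other, and Usp17lc and Usp17lb, also among the 7, belong to the same family. A gene was counted if any of its windows held the element, while the shares over all promoters are per window. A match of letters does not show that the element is used.

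**Figure D3:**
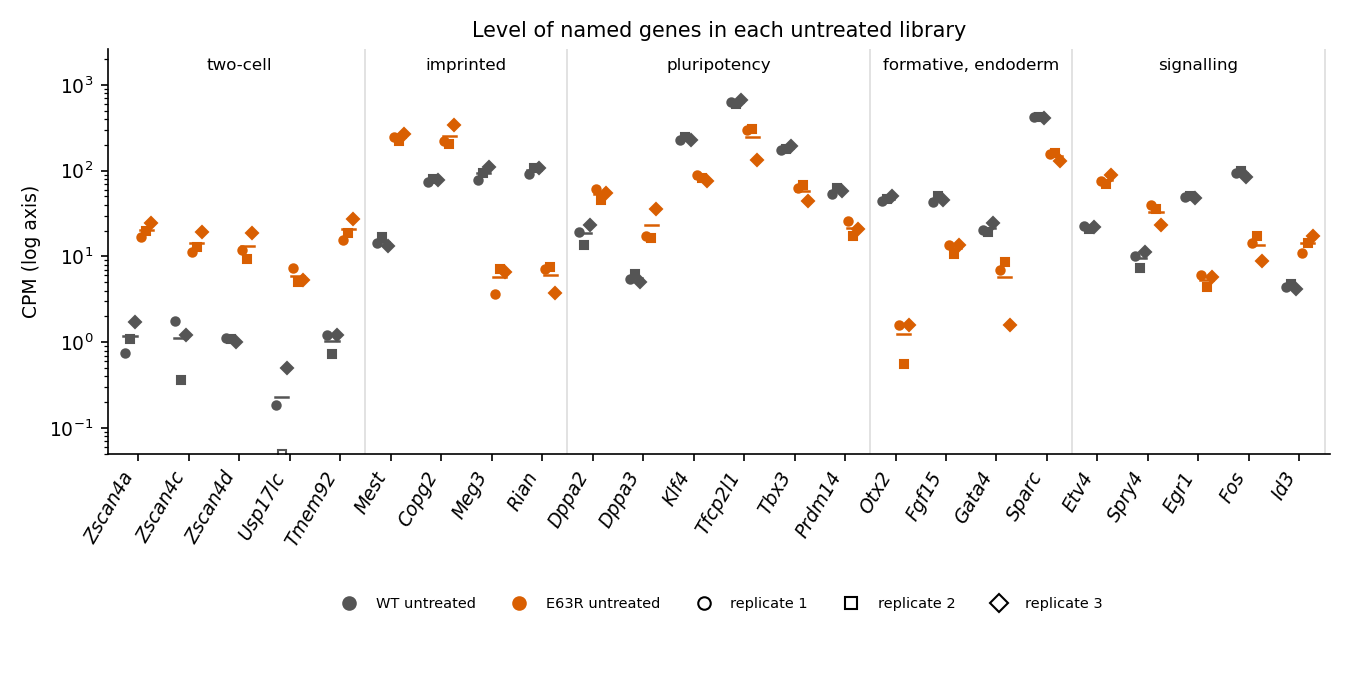
Level of named genes in CPM (y axis, log scale) in the 3 untreated WT libraries (grey) and the 3 untreated E63R libraries (orange); markers give the replicate, horizontal lines the group mean, and an open marker at the bottom a count of 0. The 2 groups do not overlap in any gene shown, which the rule for naming these genes required. E63R replicate 3 (diamond) is the lowest E63R library for Tfcp2l1, at 132 CPM, and the highest for Dppa3, at 35.5 CPM.

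Imprinted genes are expressed from the copy of 1 parent. Of 35 tested members 2 were called higher and 3 lower, against 3.32% and 4.33% of all tested genes. Mest (chr6:30723547-30748465), a paternally expressed gene of the hydrolase family, was at 14.2, 16.8 and 13.2 CPM in WT and 245, 219 and 269 CPM in E63R. This is a 16.6-fold difference (log2 4.05 ± 0.14 (SE), adjusted p = 1.15e-14), with the group means 14.7 ± 1.83 and 244 ± 25 CPM (SD, n = 3). Copg2, the neighbour that overlaps Mest on the opposite strand, was at 73.1, 79.1 and 77.3 CPM in WT and 224, 204 and 337 CPM in E63R. The use of strand in the counting is not given in the sources used here, and 912 bases are shared by the transcripts of both, so their reads cannot be told apart there. Both lie on chromosome 6, whose genes were higher as a whole by a median of 0.45 on the log2 scale. The maternally expressed noncoding genes of the Dlk1-Dio3 region on chromosome 12 went the other way. Meg3 (chr12:109541001-109571726) was at 78.5, 94 and 110.4 CPM in WT and 3.7, 7.23 and 6.52 CPM in E63R, 16.4-fold lower (adjusted p = 1.88e-12). Rian, a host of small nucleolar RNAs, was at 90.8, 107 and 108 CPM in WT and 7.12, 7.45 and 3.77 CPM in E63R, and Mirg, a host of microRNAs, at 4.19, 5.8 and 3.4 and 0.462, 0 and 0 CPM. Mirg was not called with only the 6 libraries in the fit. The protein-coding genes of the same region, read from the paternal copy, did not pass the test. Dlk1 was at 5.67, 6.71 and 5.3 CPM in WT and 4.25, 6.21 and 6.06 CPM in E63R, and Dio3 at 3.44, 3.99 and 2.2 and 3.51, 4.74 and 8.23 CPM. H19 had a log2 fold change of -0.40 ± 0.19 (SE) and Igf2r of -0.53 ± 0.24 (SE), and neither was called.

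A start-site window each of Mest and Meg3 is shown because both lie in regions where imprinting is known to be tied to DNA methylation; CG, the pair of bases that is methylated, is in capitals. The Mest window (RefSeq, GRCm38.p6) is chr6:30737800-30738099 and the Meg3 window chr12:109540746-109541045, both on the plus strand.
Mest: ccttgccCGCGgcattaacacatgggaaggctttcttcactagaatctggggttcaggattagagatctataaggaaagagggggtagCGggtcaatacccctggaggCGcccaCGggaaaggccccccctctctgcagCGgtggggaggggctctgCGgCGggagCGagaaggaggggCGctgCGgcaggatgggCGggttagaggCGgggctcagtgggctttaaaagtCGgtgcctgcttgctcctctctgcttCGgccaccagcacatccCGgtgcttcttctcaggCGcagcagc
Meg3: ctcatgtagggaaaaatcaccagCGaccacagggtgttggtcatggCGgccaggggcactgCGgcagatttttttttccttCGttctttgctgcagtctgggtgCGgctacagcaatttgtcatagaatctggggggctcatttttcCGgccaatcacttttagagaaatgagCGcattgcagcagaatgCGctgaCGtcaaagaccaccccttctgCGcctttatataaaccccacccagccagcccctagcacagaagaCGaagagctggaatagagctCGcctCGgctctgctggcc

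They hold 17 and 13 CG pairs, where the median over all promoter windows is 7, and 31.4% and 37.9% of windows hold as many or more. These are 1 of 3 start sites listed for Mest, the others with 8 and 17 CG pairs, and 1 of 2 for Meg3, the other with 1. Methylation was not measured in these data.

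Of 11 core pluripotency genes 2 were called higher and 0 lower, and by adjusted p alone 4 were higher and 2 lower. The shares over all tested genes were 3.32% and 4.33%, and by adjusted p alone 9.04% and 7.83%. Pou5f1, described above, had a log2 fold change of -0.07 ± 0.13 (SE), and Sox2 was at 545, 507 and 548 CPM in WT and 367, 341 and 451 CPM in E63R, a difference of -0.47 ± 0.11 (SE) that passed the adjusted p limit without reaching 2-fold. The called pair were Dppa2 and Dppa4, neighbours whose proteins form a complex at developmental and 2-cell genes. Dppa2 was at 19.4, 13.6 and 23.5 CPM in WT and 60.4, 45.3 and 55 CPM in E63R, and Dppa4 at 31.7, 32.9 and 29.9 and 81.9, 62.9 and 113 CPM. Their fold changes were 1.51 ± 0.20 (SE) and 1.45 ± 0.16 (SE) on the log2 scale, with every E63R library above every WT library.

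Genes of the naive state, the ground state of ESCs held by LIF, were lower in part. Of 14 members 4 were called lower, all of them transcription factors, and 1 was called higher, against 4.33% and 3.32% of all tested genes. Klf4 was at 226, 247 and 229.8 CPM in WT and 89.2, 83 and 75.9 CPM in E63R, 2.83-fold lower with an adjusted p of 7.39e-10. Tfcp2l1 was at 631, 605 and 671 CPM in WT and 295, 308 and 132 CPM in E63R, and its lowest value came from replicate 3. Tbx3 fell from 182 ± 9.81 to 58.7 ± 12.6 CPM (SD, n = 3) and Prdm14, which represses the DNA methyltransferases, from 57.7 ± 4.76 to 21.3 ± 4.22 CPM. Nanog was at 893, 870.4 and 909 CPM in WT and 435, 421 and 555 CPM in E63R, which passed the adjusted p limit (3.07e-07) but not the 2-fold limit. Dppa3, a maternal factor that protects DNA from loss of methylation, was the member called higher, at 5.4, 6.25 and 5.0 CPM in WT and 17.4, 16.5 and 35.5 CPM in E63R. It lies on chromosome 6, whose genes were higher as a whole. The median log2 fold change of the list was -0.24, and -0.49 over the members off chromosomes 6 and 8. Esrrb, Zfp42, Klf2, Klf5 and Tcl1 did not pass the adjusted p limit, with log2 fold changes of -0.06, 0.33, 0.53, -0.30 and 0.15. Tfcp2l1 was not called with only the 6 libraries in the fit.

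Genes of the formative and primed states, through which cells pass on leaving the naive state, moved in both directions. Of 13 tested members 2 were called higher and 5 lower, against 3.32% and 4.33% of all tested genes. Otx2 (chr14:48657677-48673819), a homeobox factor that drives this transition, was at 44.6, 46.2 and 50.4 CPM in WT and 1.57, 0.565 and 1.6 CPM in E63R. That is 36.9-fold lower (log2 -5.21 ± 0.33 (SE), adjusted p = 1.96e-10), and the highest E63R library was below the lowest WT library by over 40 CPM. Fgf15, a secreted growth factor of primed cells, was at 43.3, 50.8 and 45.7 CPM in WT and 13.5, 10.7 and 13.5 CPM in E63R. Zic2, Zic5 and Lef1 were called lower too, with log2 fold changes of -1.7, -1.17 and -2.11, of which Zic5 and Lef1 were not called with only the 6 libraries in the fit. Pou3f1, a factor of the same state, was higher, at 4.93, 2.81 and 5.7 CPM in WT and 12.8, 16.9 and 18.1 CPM in E63R. Dnmt3a, a DNA methyltransferase, was at 61.2, 44.3 and 45.7 CPM in WT and 138, 126 and 92.9 CPM in E63R. Dnmt3b and Dnmt3l had log2 fold changes of 0.94 ± 0.17 (SE) and 0.98 ± 0.11 (SE), past the adjusted p limit but under 2-fold. In the list of DNA methylation and demethylation genes, which shares Dnmt3a, Prdm14 and Dppa3 with the lists above, no member beyond those 3 was called, and Uhrf1 passed the adjusted p limit at 0.68 ± 0.14 (SE).

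Several markers of primitive endoderm, a lineage that arises at low frequency in ESC cultures, were lower in E63R. Of 14 tested members 5 were called lower and 0 higher, with a median log2 fold change of -0.87, where 4.33% of all tested genes were called lower. Their summed level was 934 to 966 CPM in WT and 361 to 560.2 CPM in E63R. Gata4, a defining factor of the lineage, was at 20.6, 19.1 and 24.8 CPM in WT and 6.93, 8.58 and 1.6 CPM in E63R, and Gata6 at 11.9, 10.1 and 6.8 and 2.5, 4.52 and 2.29 CPM. Sparc, a secreted matrix protein, was at 427, 421 and 412 CPM in WT and 156, 159 and 130.4 CPM in E63R, 2.83-fold lower. Sox17, another defining factor, was at 0.186, 0.816 and 0 CPM in WT and 1.2, 0.226 and 6.63 CPM in E63R and did not pass the test. Gata4, Gata6, Sox7 and Col4a1 were not called with only the 6 libraries in the fit, and Col4a1 was not called without replicate 3.

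Of 14 trophoblast genes 5 were called lower and 1 higher, with a median of -1.23, against 4.33% and 3.32% of all tested genes. Their summed level was 324 to 346 CPM in WT and 159.7 to 195 CPM in E63R. Tfap2c, a factor of trophoblast and germ cells, was at 176, 175 and 183 CPM in WT and 56.3, 69.5 and 41.2 CPM in E63R. Eomes was at 15.8, 24.6 and 20.8 CPM in WT and 8.13, 4.74 and 6.4 CPM in E63R, and Esx1, Hand1 and Wnt7b had log2 fold changes of -1.3, -1.32 and -1.15. Ascl2, a factor of placental progenitors from an imprinted region, was the member called higher, at 2.42, 5.62 and 2.1 CPM in WT and 12.5, 11.3 and 29.6 CPM in E63R. Cdx2, which defines the lineage, was low in all 6 libraries, at 0, 0.362 and 0.20 CPM in WT and 1.48, 0.904 and 2.4 CPM in E63R, and did not pass the test. Hand1, Ascl2 and Wnt7b were not called with only the 6 libraries in the fit, and Wnt7b was not called without replicate 3.

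Hox genes, which set position along the body axis and are mostly silent in ESCs, were called in 1 direction. Of 39 members 20 passed the filter on low counts, and of these 7 were called lower and 0 higher (median log2 fold change -1.64 over the 20, or -1.62 with absent genes at their bound), with 5 of the 7 in the Hoxc cluster on chromosome 15. Over all tested genes 4.33% were called lower. Hoxc13 had the most counts, at 29, 25.1 and 28.7 CPM in WT and 6.93, 5.31 and 5.83 CPM in E63R (4.56-fold lower, adjusted p = 1.61e-08). Hoxc10 was at 5.86, 6.62 and 4.1 CPM and Hoxc11 at 2.42, 4.08 and 7.1 CPM in WT, and both had no count in any E63R library, at least 17.3-fold and 14.2-fold lower. Both were near 0 in the E63R and Y48E libraries with and without OHT, so they passed the filter through the WT libraries alone. Such members could come out lower but not higher, and how many of the 20 entered in this way was not counted. Hoxb13 was at 11.9, 10.4 and 13.4 CPM in WT and 1.02, 2.03 and 2.52 CPM in E63R. Hoxb9, Hoxc4 and Hoxc12 were not called with only the 6 libraries in the fit.

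Among other lineages, mesendoderm genes gave 2 of 9 called lower and 1 higher. For this and the following lists the shares over all tested genes were 4.33% called lower and 3.32% higher. Gsc, the homeobox gene goosecoid, was at 9.77, 12.5 and 9.0 CPM in WT and 1.48, 0.452 and 3.43 CPM in E63R. Lefty1, a secreted inhibitor of Nodal, was higher, at 18.4, 23.1 and 32.2 CPM in WT and 66.7, 59 and 96.4 CPM in E63R. Of 11 neural genes 3 were called higher and 1 lower. Pax6, an eye and forebrain factor, was at 0.186, 2.54 and 0.60 CPM in WT and 10.1, 8.81 and 10.1 CPM in E63R, while Sox21 had a log2 fold change of -1.5 ± 0.30 (SE). Of 9 fibroblast and mesenchyme genes 1 was called lower, the collagen gene Col1a1, and 2 higher, both encoding proteins of the contractile cytoskeleton. Tagln was at 0.651, 2.17 and 0.30 CPM in WT and 13.8, 16.4 and 26.8 CPM in E63R (log2 4.14 ± 0.39 (SE)), although 62.4% of its exon bases overlap Gm48529 on the other strand. Acta2 was at 0.465, 2.72 and 1.8 CPM in WT and 8.78, 8.02 and 8.23 CPM in E63R. Dcn, Lum and S100a4, markers of that lineage, had no count in any of the 6 libraries, as did Cer1, Neurog2, Dcx, Emcn and Tpbpa of the other lists. The summed levels were 147 to 161 CPM in WT and 149.5 to 179 CPM in E63R for the fibroblast list and 474 to 489 CPM in WT and 343 to 436 CPM in E63R for the neural list. They were 207 to 224 CPM in WT and 184 to 245 CPM in E63R for the mesendoderm list and 250.2 to 272 CPM in WT and 141 to 182 CPM in E63R for the endothelial and blood list. Endothelial and blood genes gave 1 of 14 called higher, Flt1 (log2 1.52 ± 0.26 (SE)), and 1 lower, Tek (-1.65 ± 0.28 (SE)). Keratin and keratinocyte genes gave 3 of 17 called lower, Krt80, Dsp and Perp, and 0 higher. Dsp, the desmosome protein desmoplakin, was at 135, 132 and 147 CPM in WT and 56.8, 57 and 31.6 CPM in E63R. With only the 6 libraries in the fit, Gsc, Pax6, Sox21, Acta2, Col1a1, Flt1, Tek and Krt80 were not called.

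Targets and feedback inhibitors of FGF and ERK signalling, a route that pushes ESCs out of self-renewal, split into 5 of 17 called higher and 2 lower. Among all tested genes 3.32% were called higher and 4.33% lower. Of the 5 called higher, 1 lies on chromosome 6 or 8, whose genes were higher as a whole. Those called higher are targets or inhibitors that answer to the pathway. Etv4, an ETS factor induced by the pathway, was at 22.6, 21 and 22.3 CPM in WT and 75.4, 70.3 and 89.4 CPM in E63R. Spry4, an inhibitor of the receptor signal, was at 10.2, 7.25 and 11.2 CPM in WT and 39.9, 35.5 and 23.3 CPM in E63R, and Spry1, Dusp4 and Ier3 had log2 fold changes of 1.1, 1.34 and 1.4. Those called lower, Egr1 and Fos, are immediate-early genes, which respond quickly to growth factors. Ier3, called higher, belongs to the same class, so the 2 directions do not divide the list by kind. Egr1 was at 49.8, 50.3 and 48.3 CPM in WT and 6.01, 4.41 and 5.72 CPM in E63R, 9.14-fold lower (adjusted p = 1.88e-12), and Fos at 95.1, 98.8 and 85.4 and 14.2, 17.3 and 8.92 CPM, 6.89-fold lower. Junb, another immediate-early gene, went the same way as Ier3, at 41.6, 46.9 and 45 CPM in WT and 75.5, 81.2 and 112 CPM in E63R, but was not called without replicate 3. Dusp4 and Ier3 were not called with only the 6 libraries in the fit, and Ier3 was also not called without replicate 3.

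Of 12 LIF and STAT3 genes 2 were called higher and 2 lower, the latter Klf4 and Tfcp2l1 described above. For the LIF, BMP and WNT lists alike, the shares over all tested genes were 3.32% called higher and 4.33% lower. Of the members called higher, 1 in the LIF list and 1 in the WNT list lie on chromosome 6 or 8, whose genes were higher as a whole. Socs3, the direct feedback target of STAT3, was at 208, 222 and 207 CPM in WT and 278, 227 and 257 CPM in E63R and did not pass the test. Gbx2 was called higher with a log2 fold change of 1.05 ± 0.25 (SE). Of 16 BMP and Id genes 1 was called in each direction. Id3, a target of BMP that blocks differentiation factors, was at 4.37, 4.71 and 4.2 CPM in WT and 10.9, 14.2 and 17.4 CPM in E63R, and Smad7, a feedback inhibitor, at 141, 129 and 157 and 69.9, 65.7 and 54.3 CPM. Id1 and Id2 had log2 fold changes of 0.29 ± 0.17 (SE) and -0.43 ± 0.25 (SE) and were not called. Of 14 WNT feedback genes 4 were called higher and 1 lower. Nkd2, an inhibitor of WNT signalling, was at 2.42, 1.81 and 1.8 CPM in WT and 7.02, 6.89 and 8.12 CPM in E63R. Axin2, the usual readout of the pathway, was at 7.44, 6.07 and 9.0 CPM in WT and 16.2, 22 and 10.8 CPM in E63R. Sp5 had no count in WT and 1.48, 0.565 and 1.03 CPM in E63R, at least 3.61-fold higher. Lef1 was the member called lower. Gbx2, Axin2, Lef1 and Nkd1 were not called with only the 6 libraries in the fit, and Sp5 was not tested there.

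The lists of HDAC1 partners gave 1 called gene, where 7.65% of all tested genes were called. Lists of this length hold too few genes to tell that from the share over all genes. No member of the NuRD list (13 genes), the CoREST list (12) or the list of MiDAC, MIER and RERE members (8) was called, and 1 of 16 SIN3 genes was. By adjusted p alone 3 NuRD genes were higher, Rbbp7, Gatad2a and Chd4, with log2 fold changes of 0.81 ± 0.12 (SE), 0.72 ± 0.10 (SE) and 0.52 ± 0.13 (SE). Rcor1, the CoREST scaffold, was lower by adjusted p alone at -0.74 ± 0.17 (SE), and Mier3 at -0.63 ± 0.14 (SE). The called SIN3 gene was Ing2, a reader of histone methylation, at 17.3, 19.1 and 22.3 CPM in WT and 40.2, 34.3 and 49.98 CPM in E63R, and it was not called without replicate 3. Sin3b was at 89.1, 90.7 and 96.1 CPM in WT and 164, 139 and 247 CPM in E63R, just under 2-fold. Ing2, Sin3b, Sap30 and Ing1 and the NuRD gene Gatad2a lie on chromosome 8, and Chd4 on chromosome 6, where genes were higher as a whole. Fam60a, also of SIN3, was higher by adjusted p alone at 0.99 ± 0.10 (SE), and under its newer symbol Sinhcaf it lies on chromosome 6 in GENCODE M21, so all 5 SIN3 genes that were higher by adjusted p lie on these chromosomes. Of the 11 HDAC genes only Hdac11, also on chromosome 6, was called, at 14.4, 14.3 and 12.9 CPM in WT and 28.9, 27.4 and 27.8 CPM in E63R. Its log2 fold change, 1.01 ± 0.17 (SE), lay at the 2-fold limit, and it was not called with GC and length trends removed, without WT replicate 3 or without E63R replicate 1. Hdac3 had a log2 fold change of 0.48 ± 0.14 (SE) and was not called.

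Glycolysis and hypoxia genes were mostly higher by a modest amount. Of 22 members 4 were called higher and 0 lower, against 3.32% and 4.33% of all tested genes. By adjusted p alone 16 were higher, where 9.04% of all tested genes were, and the median log2 fold change was 0.63. With OHT 1 member was called higher and the median was 0.15. Tpi1, triosephosphate isomerase, was at 754, 767 and 737 CPM in WT and 1433, 1401 and 2173 CPM in E63R. Hk2, the hexokinase that commits glucose to the pathway, was at 321, 304 and 350.0 CPM in WT and 733, 758 and 561 CPM in E63R. Bnip3, a mitochondrial target of hypoxia, was at 225, 251 and 249 CPM in WT and 501, 458 and 716 CPM in E63R. On chromosomes 6 and 8 lie 5 members, among them Hk2, Tpi1, Ldhb and Slc2a3 on chromosome 6. These 5 include 3 of the 4 called higher, and all 5 were higher by adjusted p alone. The median over the members off chromosomes 6 and 8 was 0.43. Tpi1 and Bnip3 were not called without replicate 3. No member of the cholesterol synthesis list (20 genes) was called, and 4 were higher by adjusted p alone.

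Of 19 p53 targets and inhibitors of cyclin-dependent kinases 3 were called lower and 0 higher, and 8 were lower and 3 higher by adjusted p alone. Over all tested genes 4.33% were called lower, and 7.83% were lower and 9.04% higher by adjusted p alone. Cdkn2a, which encodes p16 and p19ARF, was at 31.6, 24.9 and 26.7 CPM in WT and 5.92, 7.57 and 12.9 CPM in E63R, and its neighbour Cdkn2b at 12.5, 9.7 and 8.2 and 1.76, 3.84 and 3.32 CPM. Plk2 was at 151, 129 and 132 CPM in WT and 49.4, 48.3 and 40.8 CPM in E63R. Cdkn1a, the p21 gene, was at 206, 198 and 174 CPM in WT and 170.4, 168 and 159 CPM in E63R and did not pass the test. Of 22 germline and meiosis genes 4 were called lower and 1 higher, against 4.33% and 3.32% of all tested genes. Sohlh2, a germ-cell transcription factor, was at 116, 121 and 114 CPM in WT and 34.2, 38.3 and 32.7 CPM in E63R, 3.34-fold lower (adjusted p = 2.2e-10). Among S100 and annexin genes 2 of 14 were called higher, S100a6 at 5.77, 3.35 and 4.3 CPM in WT and 12.4, 12.4 and 29.6 CPM in E63R, and Anxa3 with a log2 fold change of 1.98 ± 0.28 (SE). Of 15 cadherin and EMT genes only Cdh3 was called, higher at 1.19 ± 0.15 (SE), and the E-cadherin gene Cdh1 was higher by adjusted p alone at 0.57 ± 0.09 (SE); both lie on chromosome 8. Interferon and MHC class I genes gave 1 of 18 in each direction, Ddx58, whose groups overlapped, and Oas1a, which was not called without replicate 3. The serine, one-carbon and ATF4 list gave Slc7a3 higher (1.15 ± 0.23 (SE)) and Atf3 lower (-1.51 ± 0.26 (SE)) of 20. With only the 6 libraries in the fit, Cdkn2b, Hormad1, Tuba3b, Brdt, Tex101, S100a6, Anxa3, Oas1a, Atf3 and Ankrd37 were not called.

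Genes of chromosomes 6 and 8 were higher in E63R as whole chromosomes. The median log2 fold change was 0.45 over 943 tested genes of chromosome 6 and 0.42 over 1029 of chromosome 8, while the other chromosomes lay between -0.20 (chromosome 14) and 0.02. Of genes with a mean of at least 5 CPM, 82.8% on chromosome 6 and 75.3% on chromosome 8 were above 0. On chromosome 6, 101 genes were called higher (10.7%) and 23 lower, and on chromosome 8, 90 (8.75%) and 30. The shift was alike in the 3 E63R libraries, 0.49 to 0.52 for chromosome 6 and 0.42 to 0.46 for chromosome 8. In the OHT-treated E63R libraries it was 0.48 to 0.51 and 0.36 to 0.39, measured against the same untreated WT mean, and in the OHT-treated WT libraries -0.09 to -0.06 and -0.03 to 0.00. Windows of 10 Mb with at least 20 genes had medians of 0.32 to 1.03 along chromosome 6. On chromosome 8, 10 windows from the start to 110 Mb had medians of 0.31 to 0.74, the window from 110 to 120 Mb had 0.06, and the last, from 120 to 130 Mb, had -0.30. The 185 windows of other chromosomes spanned -0.43 to 0.33. Chromosomes 6 and 8 held 31.2% of the genes called higher that have a position, against 10.6% of all tested genes with one. Off these 2 chromosomes, 422 genes were called higher (2.55% of 16556) and 750 lower (4.53%). The number of copies of each chromosome was not measured, and its part in the result was not tested.

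**Figure D4:**
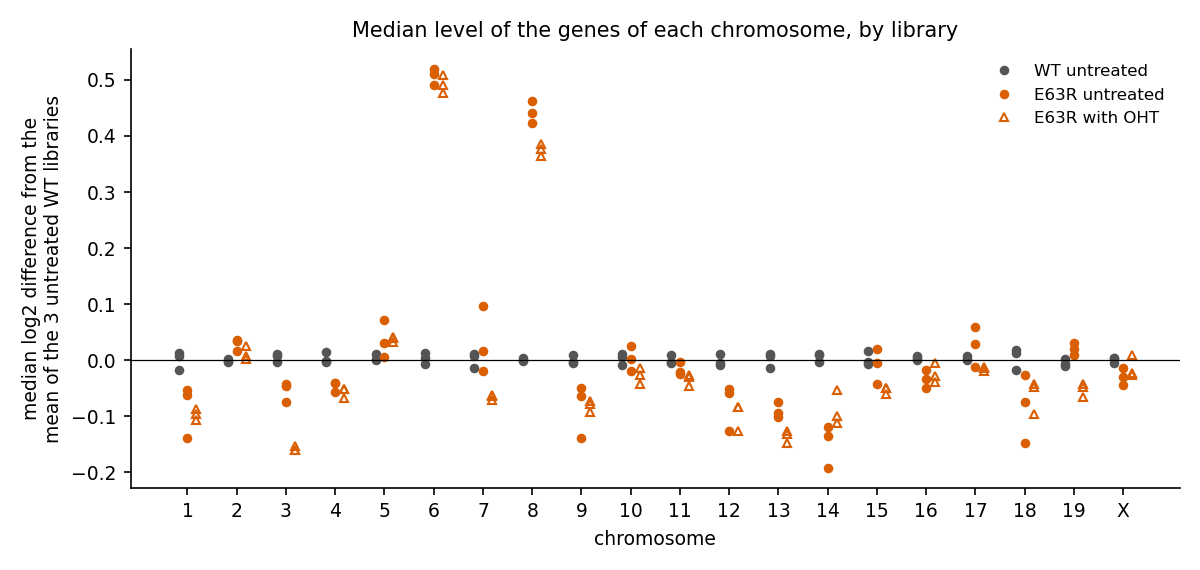
Median log2 difference from the mean of the 3 untreated WT libraries (y axis) over the genes of each chromosome with a mean of at least 5 CPM (x axis); each point is 1 library. On chromosome 6 the untreated E63R libraries lie at 0.49 to 0.52 and on chromosome 8 at 0.42 to 0.46, and on every other chromosome all lie between -0.19 and 0.10.

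The OHT-treated libraries of the same lines give the difference a second time, in cells treated to delete the endogenous genes. Hdac2, for which no transgene is described, was still read there, at 112, 126 and 133 CPM in WT and 149.7, 152 and 158 CPM in E63R, so the counts per gene do not show the deletion. There, 1114 genes were called higher in E63R than in WT (5.93%) and 644 lower (3.43%). Of the 623 genes called higher without OHT, 347 (55.7%) were called higher with it, 0 lower, and 608 had the same sign. Of the 814 called lower, 341 (41.9%) were called lower again, 17 were called higher, and 713 had the same sign. Over all tested genes 68.2% had the same sign, and the log2 fold changes of the 2 comparisons had a Pearson r of 0.51 over genes, a description only. The 2 comparisons share no library, although both contrast the same pair of lines.

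The change of the difference with OHT was tested directly as an interaction, in which 316 of all tested genes were called (1.68%). Among the 1437 genes called without OHT there were 133, 106 against the sign of the untreated difference and 27 with it. The untreated libraries enter both sides, which favours the former. Mest was one of the 27, with a log2 difference of 4.05 without OHT and 6.41 with it (change 2.36, adjusted p = 1.32e-06). Zscan4c, Zscan4d, Zscan4e and Zscan4f were among them too, with differences of 7.0, 6.78, 9.41 and 8.52 with OHT. Meg3 was called lower in both, at -4.04 without and -3.44 with OHT, as was Klf4, at -1.5 and -1.35, and for neither did the change pass the test. Otx2 had a smaller difference with OHT, -3.33 after -5.21, and was still called lower. Egr1 lost most of its difference, from -3.19 to -0.59 (change 2.60, adjusted p = 7.28e-08). Hand1 and Wnt7b turned over, from -1.32 and -1.15 without OHT to 2.16 and 1.72 with it. With OHT, 5.93% of all tested genes were called higher and 3.43% lower. Among lists, 14 of 15 2-cell genes were called higher and 0 lower, and of 20 Hox genes 0 higher and 7 lower. Of 17 keratin genes 8 were called higher and 1 lower, and of 14 trophoblast genes 5 and 1. Members of the 2-cell and Hox lists that passed the filter through 1 side only could come out in 1 direction only.

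**Figure D5:**
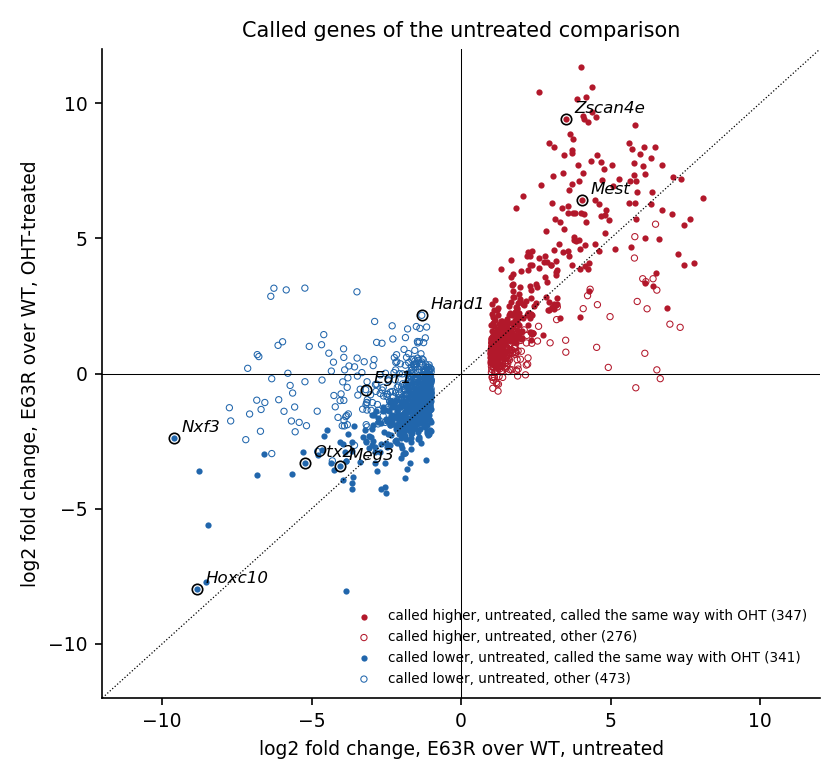
Log2 fold change of E63R over WT with OHT (y axis) against that without OHT (x axis) for the 1437 genes called without OHT; filled points, 347 higher and 341 lower, were called the same way in both. The dotted line marks equal differences; Mest and Zscan4e lie above it, Nxf3 and Egr1 lie nearer to 0 with OHT, and Hand1 is on the opposite side.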

How the data were processed

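RNA from 18 libraries of mouse ESCs (3 each of 6 groups) was sequenced as paired-end reads. The values are raw counts per gene symbol; the authors aligned the reads to mm10 and counted them, and the submitters' notes name HISAT2 2.1.0, SAMtools 1.9 and HTSeq, while the annotation and strand setting are not given in the sources used here. In the 6 libraries compared, 59.4% to 60.3% of entries named no gene (42.9% to 45.9% no feature) and were left out. Floors and counts cover counting error only.

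The deposited counts were tested with edgeR 4.0.16 in R 4.3.3 (TMM factors, filterByExpr, quasi-likelihood test, 1 mean per group over all 18 libraries). Genes were called at a change beyond 2-fold with a p under 0.01 after Benjamini-Hochberg adjustment. The SE of a log2 fold change was not taken from the fit. It was derived as the absolute log2 fold change divided by the square root of the F statistic of the test, and is approximate. Alternatives included DESeq2 1.42.0, and scripts were tested on simulated data. Of the genes tested, 98.6% had a GENCODE M21 symbol. Copies were matched with BLAST 2.17.0, and promoter windows came from RefSeq (GRCm38.p6).

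Named genes were Hdac1 and Hdac2, the 12 protein-coding and 3 other called genes with the largest change in each direction (mean of at least 1 CPM, groups apart), called members of 31 gene lists whose groups were apart, and the 5 genes in each direction farthest from their group in E63R replicate 3; other list members are given for context. The members and lists were chosen with earlier results of these data known. No library was left out of the reported fit.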

Additional observations from a re-analysis of the deposited data

Results flagged for a closer look

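Among the named genes, 27 had a difference between the E63R and WT lines that itself changed with OHT, by the edgeR interaction test with an adjusted p under 0.01 and a change beyond 2-fold. The value beside each gene is the change of its log2 difference, with OHT minus without. The difference was larger with OHT for genes already higher in untreated E63R, namely Gm21761 (2.44), Zscan4c (3.3), Zscan4d (3.16), Zscan4e (5.89), Zscan4f (5.56), Usp17la (2.5), Usp17ld (4.28), Usp17le (4.3), Mest (2.36), S100a6 (1.79), Dusp4 (2.52) and Id3 (1.89). It was smaller with OHT for Bnip3 (-1.1). Of the genes lower in untreated E63R, the difference moved up with OHT for Nxf3 (7.24), Otx2 (1.88), Col4a1 (1.15), Esx1 (1.84), Tek (1.9), Tuba3b (2.19), Sohlh2 (1.25), Rian (1.53), Perp (1.54), Egr1 (2.6) and Atf3 (1.84). It moved past 0 and was called higher with OHT for Hand1 (3.47), Wnt7b (2.87) and Col1a1 (2.4). The untreated libraries enter both terms of this test, which favours smaller differences with OHT among genes chosen without it, and the Zscan4 genes are near copies of each other.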

How the results depend on the processing

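The values are genes called higher and lower in untreated E63R, those called the same way with OHT (higher, lower), and called genes whose difference changed with OHT. Fitting only the libraries compared gave 209 and 295, 122 and 187, and 58. Testing against a 2-fold change (glmTreat) gave 125 and 163, 90 and 68, and 16. The last count was also 209 with no filter on low counts, 209 with the DESeq2 Wald test and 252 at an adjusted p limit of 0.05. The counts of genes called higher and lower stayed within 1.5 times the reported ones with relative log expression factors (662 and 795), no filter (709 and 917), DESeq2 (805 and 959, with 620 and 796 of the reported genes), an adjusted p limit of 0.05 (861 and 1135), GC and length trends removed, and, chosen after seeing the data, without chromosomes 6 and 8 (466 and 704) and, as a change of 2 choices, with only the libraries compared and E63R replicate 3 left out (501 and 742, 269 and 355, and 178). Leaving out 1 library gave 520 to 728 genes higher, 663 to 900 lower, 289 to 374 and 293 to 347 called again with OHT, and 89 to 193 whose difference changed, where the 2-library group was taken to vary like the others. The cause of these shifts was not tested beyond the construction of each alternative.

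The deviations of same-numbered WT and E63R libraries correlated at -0.04, -0.02 and -0.08, and those of other pairs at -0.04 to 0.06. Because replicate 3 dominates the E63R deviations, these values cannot decide whether the replicate numbers pair the libraries. With a replicate block the counts were 569 and 791, 319 and 334, and 127. The direction of 5 genes picked for their value in E63R replicate 3 depended on that library. Over all alternatives, each library left out in turn among them, Ahr ranged from -0.87 to 0.12 and Tex30 from -0.65 to 0.59 on the log2 scale. Gadd45g ranged from -0.55 to 0.67, Gm5617 from -0.65 to 0.51 and Fam25c from -0.19 to 0.91. With only the libraries compared and without E63R replicate 3 they were 0.12 for Ahr, -0.65 for Tex30, -0.55 for Gadd45g, -0.65 for Gm5617 and -0.19 for Fam25c, and with the GC and length trends removed Gm5617 was at -0.0805. Of the 128 named genes that were called, 49 were not called with only the libraries compared, of which 39 were when E63R replicate 3 was left out as well, 8 were not called without replicate 3, and 69 not by glmTreat. Leaving out another library also ended calls: AC127242.3, Lef1, Gata6, Col1a1, Acta2, Tex101, Junb, Sp5, Oas1a and Myl4 without WT replicate 1, Hist2h4, Lef1, Gata6, Wnt7b, Gsc, Elavl3, Col1a1, Usp17la, Gbx2, Sp5, Oas1a and Myl4 without WT replicate 2, AC127242.3, Lef1, Sox7, Col1a1, Acta2, Usp17la, Tex101, Hdac11, Gbx2, Sp5, Nkd1, Oas1a, Hoxc4, Hoxc12 and Myl4 without WT replicate 3, Hist2h4, AC127242.3, Gata6, Gsc, Nes, Elavl3, Col1a1, Hdac11, Gbx2, Sp5, Hoxb9, Hoxc4, Hoxc12 and Myl4 without E63R replicate 1, and Gpr139, Lef1, Elavl3, Tex101, Axin2, Oas1a, Hk2 and Myl4 without E63R replicate 2. Genes near the floor of 3 counts have folds that rest on few reads.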

Other observations

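The untreated libraries of the remaining line of the series, which carries HDAC1-Y48E, give values for the same genes, set beside the others without a test because that comparison would share the WT libraries. Mest was at 162 ± 2.7 CPM in untreated Y48E (SD, n = 3), 14.7 CPM in WT and 244 CPM in E63R. Meg3 was at 247 ± 20.4 CPM in Y48E, 94.3 CPM in WT and 5.82 CPM in E63R, and Rian at 252 ± 15.4 CPM in Y48E. Egr1 was at 71.6 ± 7.56 CPM and Etv4 at 24 ± 5.64 CPM in Y48E, where E63R had 5.38 and 78.4 CPM. Other genes lay on the same side of WT in both mutant lines, so their change is not particular to E63R. Hdac1 was at 101 CPM in untreated Y48E, 105 in E63R and 205 in WT, and Zscan4a at 40.9, 20.4 and 1.18. Otx2 was at 7.11, 1.25 and 47.1 CPM in the same order, Tfap2c at 59.5, 55.6 and 178, and Hoxc11 at 0, 0 and 4.53. Over genes of chromosome 6 the median log2 difference from untreated WT was 0.51 to 0.53 in the 3 untreated Y48E libraries, and over chromosome 8 it was 0.33 to 0.39.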
